A study of Mus musculus with 42 samples.

Results

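The genes described here encode the enzymes of cholesterol synthesis and the proteins that sense, move and esterify sterols in the cell. They were chosen by symbol, and all 30 listed genes were found among the 48709 genes of the deposited count table. Of these, 8 belong to the mevalonate arm, 12 to the squalene and sterol arm, 4 to sterol sensing, 4 to sterol transport and 2 to sterol esterification. Their transcripts were counted in ear skin, aorta and liver of mice with psoriasis-like skin disease, 14 libraries per tissue and 42 in all. All mice carried the K14-Rac1V12 transgene, in which the keratin 14 promoter drives constitutively active Rac1, a small GTPase, in basal keratinocytes; mice without it were not analysed here. The mice were 14 weeks old when they were assigned to a diet, after 2 weeks on the omega-3 deficient (OD) diet, and were then fed for 12 weeks. The EPA diet held 3 g of eicosapentaenoic acid per kg, the DHA diet is read as holding 3 g of docosahexaenoic acid per kg although the label text of that dose names EPA, and the OD group stayed on the deficient diet. The labels give 4 g per day as the human equivalent of either supplement. Each tissue had 5 EPA, 5 DHA and 4 OD libraries. The labels name no sex, no litter and no batch, and do not tie the 3 tissues of a mouse to each other.

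Cholesterol is built from acetyl-CoA by way of mevalonate, the isoprenoid diphosphates, squalene and lanosterol. Most genes of the route are driven by the transcription factor that Srebf2 encodes, which Scap escorts out of the endoplasmic reticulum when membrane sterol is low and which Insig1 and Insig2 hold back when sterol is high. The liver makes cholesterol for lipoproteins and bile acids, the epidermis makes it for the water barrier and the sebaceous glands for sebum, and cells of the vessel wall can both make sterol and take it up through lysosomes.

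Promoter sequence is shown for 4 members: Hmgcs1, which serves as the index of the pathway in liver, Insig1 and Lss, which moved with it there, and Npc2, the member called between diets in aorta, where the call depended on the processing. Each line gives the 250 bases before the annotated start, 5′ to 3′ on the gene's strand, from RefSeq on GRCm38.p6. Capitals mark every match, on either strand, to the motifs TCACNCCAC (a form of the sterol regulatory element), CCAAT (the CCAAT box), GGGCGG (a GC box) and CACGTG (an E-box); where matches lie on the reverse strand, the capitals show the complement.
Hmgcs1: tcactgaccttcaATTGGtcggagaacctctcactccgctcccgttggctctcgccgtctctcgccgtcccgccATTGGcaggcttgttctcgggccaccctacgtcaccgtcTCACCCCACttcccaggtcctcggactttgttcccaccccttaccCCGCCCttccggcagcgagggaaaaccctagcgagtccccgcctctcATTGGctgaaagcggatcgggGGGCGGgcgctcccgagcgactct
Insig1: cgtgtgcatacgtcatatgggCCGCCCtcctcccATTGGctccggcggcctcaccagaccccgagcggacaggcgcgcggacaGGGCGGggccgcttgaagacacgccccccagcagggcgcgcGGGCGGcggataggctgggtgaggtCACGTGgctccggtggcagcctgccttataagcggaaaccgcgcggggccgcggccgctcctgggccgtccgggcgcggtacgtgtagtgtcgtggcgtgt
Lss: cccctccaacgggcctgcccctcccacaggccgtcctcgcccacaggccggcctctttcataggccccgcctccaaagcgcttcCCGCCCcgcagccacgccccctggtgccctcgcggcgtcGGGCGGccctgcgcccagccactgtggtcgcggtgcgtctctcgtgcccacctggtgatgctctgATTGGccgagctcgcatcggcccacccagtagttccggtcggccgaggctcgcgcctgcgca
Npc2: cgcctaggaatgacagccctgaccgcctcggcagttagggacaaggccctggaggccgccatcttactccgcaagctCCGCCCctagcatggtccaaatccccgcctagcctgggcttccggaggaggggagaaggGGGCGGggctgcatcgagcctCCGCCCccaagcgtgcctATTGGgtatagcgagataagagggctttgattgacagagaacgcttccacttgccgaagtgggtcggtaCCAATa
The windows are chr13:119690101-119690350 on the plus strand for Hmgcs1, chr5:28071162-28071411 on the plus strand for Insig1, chr10:76531355-76531604 on the plus strand for Lss and chr12:84773113-84773362 on the minus strand for Npc2. In Hmgcs1 the sterol regulatory match begins 137 bases before the start. Of the 30 members, 24 were matched in the RefSeq table, and that motif occurred in 1 of the 24, against 1.22% of all 27025 genes with a window. CCAAT occurred in 22 of the 24, against 37.5% of all genes, and GGGCGG in 21 of the 24, against 35.4%. CACGTG occurred in 5 of the 24 (Dhcr7, Hsd17b7, Insig1, Sc5d and Scap), against 6.86% of all genes. A match describes the letters of these windows and not a bound site, and the motifs were not searched beyond them.

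The libraries were 3′ tag libraries, so levels are CPM with no scaling by transcript length. For these CPM, counts were scaled to the total of the genes tested times the library's TMM factor (trimmed mean of M values). Skin libraries held 40157 to 220488 counts, aorta libraries 179795 to 717508 and liver libraries 343824 to 768532. The members' median share of a library was 0.291% for skin, 0.102% for aorta and 0.231% for liver. Over the raw total of a library, 3 counts stood at 13.6 to 74.7 CPM in skin, 4.18 to 16.7 CPM in aorta and 3.90 to 8.73 CPM in liver. These floors cover counting error only. The CPM given below are scaled otherwise, so they cannot be set against these floors directly. In skin DHA replicate 4, 3 counts of Dhcr7 stood at 106 CPM when scaled within the tissue. All 10 keratinocyte markers were detected in skin, all 10 smooth muscle markers in aorta and all 10 hepatocyte markers in liver. Detection alone did not set the tissues apart, since all 10 hepatocyte markers were also detected in skin and aorta. They summed to 1184 to 7144 CPM in skin and 821 to 1562 CPM in aorta, against 135475 to 173941 CPM in liver. Their source in skin and aorta was not tested. Within a tissue the filter on low counts kept 12 members for skin, 19 for aorta and 24 for liver; 6 passed in all 3 tissues, and Mvk, Mvd and Srebf2 in none. All 30 entered the fit of the 42 libraries together, and the heat map of levels by library shows them all. OD livers were sequenced more deeply than the others, and Xist stood above 200 CPM in 2 EPA, 1 DHA and 0 OD libraries of each tissue, EPA replicates 1 and 5 and DHA replicate 1 in all 3. Exons of Fdft1, Cyp51, Npc1, Lbr and Ggps1 overlap a protein-coding gene on the other strand and those of Fdps and Tm7sf2 a protein-coding gene on the same strand, the strand used in counting is not given in the sources used here, and Acat2 has a closely similar neighbour, Acat3, so these levels are uncertain to that extent.

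**Figure D1:**
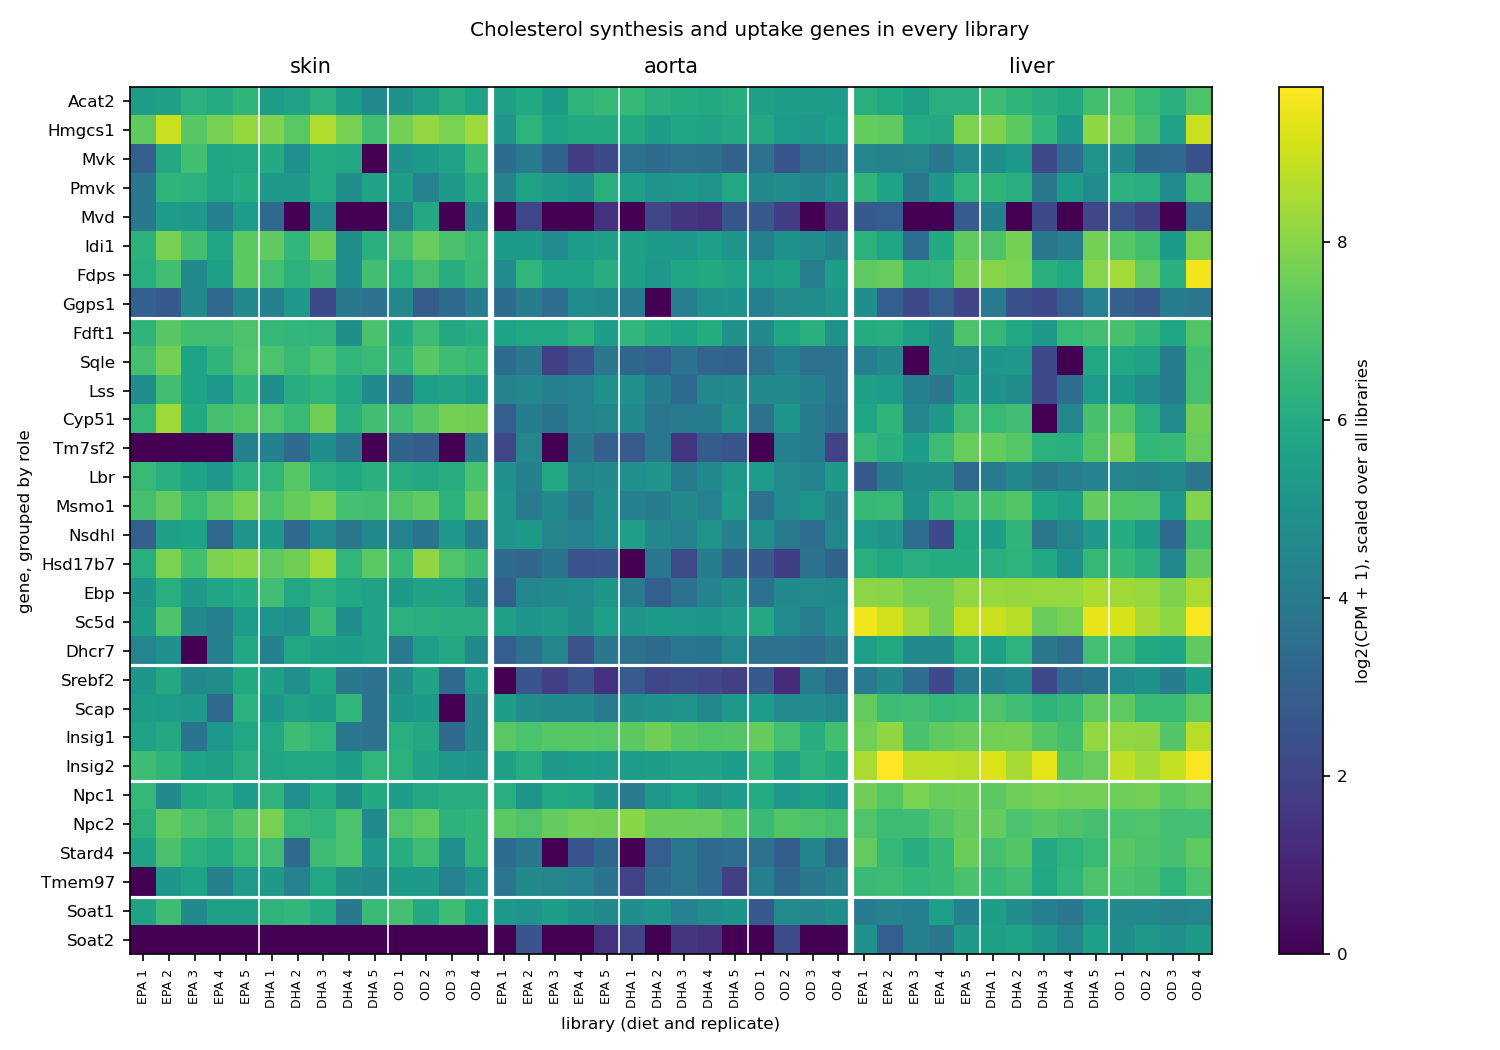
Heat map of log2(CPM + 1) for the 30 members (rows, by role) in the 42 libraries (columns, by tissue and, within a tissue, EPA, DHA and OD). Liver columns differ from each other more than aorta columns do, and Soat2 is at 0 in all 14 skin libraries.

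Tissues were compared in the fit of all 42 libraries, averaged over the 3 diets, with CPM scaled across tissues. Cholesterol genes were mostly lower in aorta than in liver: 25 of the 30 were lower and 3 were higher at an adjusted p under 0.05, while 66.1% of the 9912 genes tested were called, 35.6% higher and 30.5% lower. The median log2 difference, aorta minus liver, was -1.80 over the members and 0.12 over all genes, and 10 members were lower with no overlap between the tissues, against 12.6% of all genes. In bulk tissue, fewer cells of a type and less RNA per cell cannot be told apart. The members with the most negative differences were a mixed set of late sterol enzymes and sterol handling proteins. Ebp, the sterol isomerase, ran from 6.50 to 32.5 CPM with a median of 22.5 in aorta, against 202 to 367 CPM with a median of 296 in liver (log2 difference -3.77 ± 0.14, SE). Sc5d, the desaturase of the late pathway, ran from 16.8 to 57.8 CPM with a median of 35.5 in aorta, against 182 to 808 CPM with a median of 438 in liver (-3.72 ± 0.21). Soat2, the acyltransferase that esterifies cholesterol in liver and intestine, ran from 0 to 5.01 CPM with a median of 0 in aorta, against 6.58 to 49.6 CPM with a median of 31.8 in liver (-4.04 ± 0.36). In each of these 3 genes the highest aorta lay below the lowest liver. Tm7sf2, a sterol reductase, differed by -3.70 ± 0.27 and Stard4, a cytosolic sterol carrier, by -3.64 ± 0.24, again with no overlap. Soat2, Tm7sf2, Dhcr7 and Tmem97, which count among the lower members, passed the filter within a tissue in liver alone. An aorta library held 0 to 3 counts of Soat2, 0 to 14 of Tm7sf2 and 0 to 12 of Stard4. The size of these differences is therefore uncertain.

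At the other end, Ggps1, which makes geranylgeranyl diphosphate on a branch away from sterol, averaged 19.9 ± 9.21 CPM in aorta and 9.83 ± 7.08 CPM in liver (SD, n = 14 each; log2 difference 1.03 ± 0.29, adjusted p 0.00193). Lbr, a sterol reductase that is also a protein of the nuclear envelope, averaged 29.2 ± 10.9 CPM in aorta and 17.9 ± 6.22 CPM in liver (0.65 ± 0.21, adjusted p 0.00595). Npc2, the soluble lysosomal protein that hands cholesterol to Npc1, averaged 164 ± 41.9 CPM in aorta and 130.1 ± 20.9 CPM in liver (0.29 ± 0.13, adjusted p 0.046). These 3 were the members higher in aorta, all 3 overlapped between the tissues, and in the OD libraries alone Npc2 differed by 0.080 without a call. Ggps1 passed the filter within a tissue in aorta alone, and Lbr in aorta and skin. A liver library held 1 to 9 counts of Ggps1 and 2 to 9 of Lbr, so both calls are uncertain. Npc1, the membrane partner of Npc2, went the other way and was lower in aorta, with 42.2 ± 14.7 CPM in aorta and 186 ± 23.4 CPM in liver (-2.18 ± 0.14). Soat1, the widely expressed acyltransferase, differed by 0.20 ± 0.20 and did not pass the test (adjusted p 0.41). Acat2, the cytosolic thiolase at the entry of the pathway, had a small difference of -0.53 ± 0.14 (adjusted p 0.000527), and scaled by total counts alone its difference was 0.18.

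Between skin and liver, members were called in both directions, as were genes in general. Of the 30 members 10 were higher in skin and 13 lower, while 71.2% of all genes were called, 37.4% higher and 33.9% lower; the median log2 difference was -0.18, against 0.13 over all genes. Scaled by total counts alone the same comparison gave 18 higher and 8 lower with a median of 1.02, but the median of all genes was then 1.31. The higher members lay in the mevalonate arm (3 of 8, with 2 lower) and the squalene and sterol arm (5 of 12, with 4 lower), with Srebf2 and Soat1. Sqle, the squalene epoxidase and a control point of the route, ran from 48.6 to 205 CPM with a median of 101 in skin, against 0 to 109 CPM with a median of 25.9 in liver (log2 difference 1.86 ± 0.26). Srebf2, the master transcription factor of the pathway, ran from 9.52 to 59.2 CPM with a median of 31.5 in skin, against 3.39 to 43.3 CPM with a median of 15.8 in liver (1.10 ± 0.27). Both ranges overlapped, and the skin median was above the liver median in each. The other largest positive differences were those of Mvd at 2.10 ± 0.47, Lbr at 2.08 ± 0.22, Soat1 at 1.56 ± 0.21 and Mvk at 1.53 ± 0.28. Mvd and Mvk, which act on mevalonate and its phosphates, were counted at 0 in some skin libraries. Mvd had 0 to 9 counts a library in skin and 0 to 6 in liver, Mvk 0 to 18 and 1 to 10. Srebf2 had 1 to 15 and 1 to 19 in that order, Lbr 4 to 20 and 2 to 9, and Soat1 1 to 30 and 4 to 14. Lbr and Soat1 did not pass the filter within liver. Mvd, Mvk and Srebf2, which count among the 10 higher members, passed the filter in no tissue alone. They met the filter of the common fit through skin, where few counts make a high CPM, so their calls are uncertain.

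The members lower in skin than in liver included sensing and late sterol genes. Insig2, which anchors the Scap complex, ran from 32.8 to 104 CPM with a median of 53.8 in skin, against 146 to 855 CPM with a median of 443 in liver (log2 difference -2.93 ± 0.20), with no overlap. Tm7sf2 differed by -3.64 ± 0.36, Sc5d by -2.92 ± 0.23, Ebp by -2.38 ± 0.15 and Insig1 by -2.08 ± 0.21. Tm7sf2 and Soat2 passed the filter within a tissue in liver alone. A skin library held 0 to 8 counts of Tm7sf2, so the size of its difference is uncertain. Soat2 had 0 counts in the 14 skin libraries and 140 counts in liver, which is at least 21.8-fold lower in skin when skin is set at a floor of 3 counts over the group. With Soat2 at that bound the median over the members stayed at -0.18. Hmgcs1, the synthase that forms HMG-CoA in the cytosol, was higher in skin at 245 ± 103 CPM in skin and 165 ± 121 CPM in liver (0.60 ± 0.24, adjusted p 0.0227). Idi1, the isomerase of isopentenyl diphosphate, differed by 0.31 ± 0.27 and did not pass (adjusted p 0.312), nor did Npc2 at -0.13 ± 0.15 (adjusted p 0.456); Npc1 was lower, at -1.72 ± 0.16.

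Set against aorta, skin was higher for most of the pathway: 20 members were higher and 3 lower, while 62.8% of all genes were called, 28.9% higher and 33.9% lower. The median log2 difference was 1.3, against -0.049 over all genes, and 5 members were higher with no overlap, against 5.22% of genes. Hsd17b7, a ketosteroid reductase of the late pathway, ran from 69.1 to 331 CPM with a median of 158 in skin, against 0 to 15.9 CPM with a median of 7.62 in aorta (log2 difference 4.44 ± 0.28). Sqle ran from 48.6 to 205 CPM with a median of 101 in skin, against 2.59 to 17.6 CPM with a median of 10.6 in aorta (3.39 ± 0.28). Neither gene overlapped between the tissues. Mvd differed by 3.30 ± 0.51, Stard4 by 3.06 ± 0.28, Cyp51, the lanosterol demethylase, by 2.99 ± 0.31, Srebf2 by 2.98 ± 0.31, Hmgcs1 by 2.32 ± 0.26, Idi1 by 1.92 ± 0.30 and Soat1 by 1.36 ± 0.20. An aorta library held 0 to 2 counts of Mvd, 0 to 9 of Srebf2, 0 to 12 of Stard4 and 0 to 10 of Hsd17b7. It held 1 to 14 counts of Sqle and 2 to 27 of Cyp51, and none of these genes passed the filter within aorta. The size of these differences is therefore uncertain. Mvd, Mvk and Srebf2, which count among the 20 higher members, met the filter of this fit through skin. Insig1, a direct target of the pathway's factor that retains it in the endoplasmic reticulum, was lower in skin, at 45.8 ± 29.2 CPM in skin and 139 ± 30.4 CPM in aorta (-1.39 ± 0.21). Npc2 was lower, at -0.42 ± 0.15 (adjusted p 0.0113), a sign that turned to 0.066 when scaled by total counts alone, and Npc1 was higher, at 0.46 ± 0.18 (adjusted p 0.0265). Insig2 at 0.22 ± 0.23, Ggps1 at -0.51 ± 0.34 and Acat2 at -0.14 ± 0.17 did not pass. The third lower call was Soat2, with 0 counts in skin and 10 in aorta; it is given no fold, lost its call when any of the 14 skin libraries was left out, and without it the median was 1.36.

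**Figure D2:**
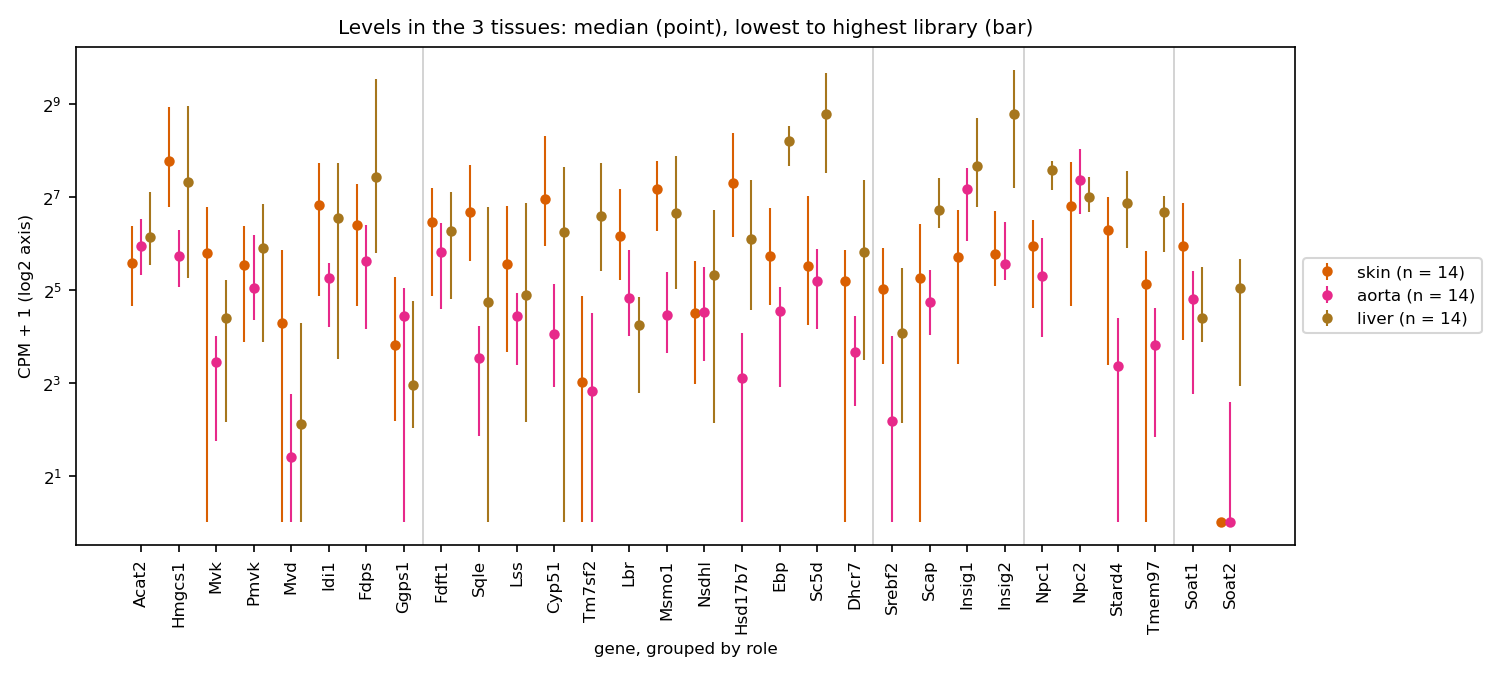
Level of each member in skin, aorta and liver on a log2 axis of CPM + 1; points are medians and lines run from the lowest to the highest of 14 libraries. Ebp, Sc5d and Insig2 lie far higher in liver than in the other tissues, and Sqle and Hsd17b7 are highest in skin.

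In liver no member passed the test between diets by edgeR's quasi-likelihood test: 0 of the 24 tested were called for EPA against OD, for DHA against OD or for EPA against DHA, and 0% of the 5018 genes tested were called in any of the 3. DESeq2 and limma voom also called 0 members in each. At an unadjusted p under 0.05 there were 4 members for EPA against OD (6.7% of all genes), 0 for DHA against OD (6.16%) and 2 for EPA against DHA (3.67%). From here on CPM are scaled within a tissue, so a gene's values differ from those above, which were scaled across tissues. The fitted changes nevertheless lay mostly on the negative side. For EPA minus OD 21 of 24 were negative with a median of -0.52, against 0.0059 over all genes, and for DHA minus OD 20 of 24 were negative with a median of -0.34, against 0.0051; both comparisons share the OD libraries. Acat2, the thiolase at the entry, had 45.5, 39.5, 29.7, 44.8 and 44 CPM on EPA, 69.4, 55.1, 44.3, 40.3 and 71.5 CPM on DHA, and 85.8, 60.3, 46.9 and 82.3 CPM on OD. The highest EPA liver lay below the lowest OD liver, and DHA overlapped both; the log2 difference was -0.77 ± 0.22 for EPA minus OD (SE; p 0.00325, adjusted p 0.438). It was the only member without overlap in this contrast and that direction, where 1.14% of genes did not overlap.

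The other members with small p for EPA against OD were enzymes of the isoprenoid and sterol arms. Sqle had 11.9, 15.3, 0, 17.9 and 16 CPM on EPA, 22.5, 24.5, 2.33, 0 and 36.8 CPM on DHA, and 34.3, 32.9, 10.6 and 69.3 CPM on OD, a log2 difference of -1.61 ± 0.65 for EPA minus OD and -1.13 ± 0.62 for DHA minus OD. Fdps, the farnesyl diphosphate synthase, had 107, 118, 52.6, 55.9 and 126 CPM on EPA, 165, 149.9, 48.9, 35.8 and 159 CPM on DHA, and 209, 108, 46.9 and 471 CPM on OD, a log2 difference of -1.19 ± 0.52 for EPA minus OD and -0.92 ± 0.52 for DHA minus OD. In both genes OD replicate 4 was the highest liver of all. The remaining OD livers lay within the range of the supplemented ones, except OD replicate 1 in Fdps, at 209 CPM against at most 165 CPM. Dhcr7, the last enzyme of the route, had 29.7, 39.5, 16, 15.7 and 44 CPM on EPA, 30.6, 52, 9.32, 6.72 and 73.6 CPM on DHA, and 62.9, 38.4, 34.1 and 104 CPM on OD, with -1.06 and -0.83 in the same order. Ebp had 178, 173, 133, 137 and 184 CPM on EPA, 202, 199, 203, 197 and 233 CPM on DHA, and 202, 196, 153 and 232 CPM on OD. EPA livers lay below all DHA livers in Ebp, as 0.399% of genes did, a difference of -0.36 ± 0.14 for EPA minus DHA (p 0.0198, adjusted p 1), and overlapped OD (-0.29 ± 0.15). Without OD replicate 4 the median change over the members was -0.23 for EPA minus OD and -0.070 for DHA minus OD, Fdps was at -0.42 and -0.15, and Acat2 was at -0.68 for EPA minus OD. Without the 3 livers with high Xist the median for EPA minus OD was -0.94, and with no filter on low counts 4 members were called lower for EPA and 2 for DHA against OD.

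Lss, the cyclase that forms lanosterol, had the smallest p for DHA against OD, with 31.6, 26.3, 11.4, 8.95 and 24 CPM on EPA, 20.4, 18.4, 2.33, 6.72 and 26.6 CPM on DHA, and 24.3, 16.5, 10.6 and 73.6 CPM on OD and a log2 difference of -1.11 ± 0.57 (adjusted p 0.827). Only OD replicate 4 lay above the range of the supplemented livers in Lss, and the other OD livers lay inside it. When each liver was left out in turn, the DHA minus OD change of Lss ran from -1.45 to -0.24. Insig1 had 136, 186, 80.1, 107 and 116 CPM on EPA, 135, 141, 95.5, 71.7 and 182 CPM on DHA, and 176, 181, 91.6 and 263 CPM on OD, with -0.51 for EPA and -0.52 for DHA against OD. Soat2 had 19.8, 4.38, 11.4, 8.95 and 24 CPM on EPA, 30.6, 33.7, 23.3, 13.4 and 28.6 CPM on DHA, and 17.2, 23.8, 19.2 and 24.5 CPM on OD, with -0.87 ± 0.36 for EPA minus DHA (p 0.0259, adjusted p 1). Its EPA livers were mostly below the DHA livers, and the OD livers lay inside the DHA range. The next smallest p values for EPA minus DHA belonged to Acat2 at -0.47 ± 0.23, Stard4 at 0.32 ± 0.28 and Insig2 at 0.39 ± 0.37. Insig2 was at 0.029 for EPA and -0.36 for DHA minus OD, Hmgcs1 at -0.60 and -0.41, and Idi1 at -0.76 and -0.13. Npc1 and Npc2, which export cholesterol from lysosomes, were the members positive in both comparisons: Npc1 was at 0.078 and 0.14, and Npc2 at 0.13 and 0.25. Insig2 was also positive for EPA, and for DHA so were Soat2, at 0.28, and Ebp, at 0.076. For Npc1 and Npc2, the 95% intervals for EPA minus OD ran from -0.24 to 0.39 for Npc1 and from -0.23 to 0.49 for Npc2. Hepatocyte markers summed to 135475 to 167202 CPM on EPA, 140488 to 173941 CPM on DHA and 145545 to 167948 CPM on OD, and brown adipocyte markers to 52.6 to 91.8, 59.3 to 112 and 84.1 to 154 CPM in that order of diets; the libraries held 479164 ± 17866 counts on EPA, 444004 ± 59017 on DHA and 671271 ± 96218 on OD (SD), and the part of depth and of these cells was not tested. Of 25 further genes of sterol and fatty acid metabolism, 22 were tested in liver and 0 were called in any contrast.

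**Figure D3:**
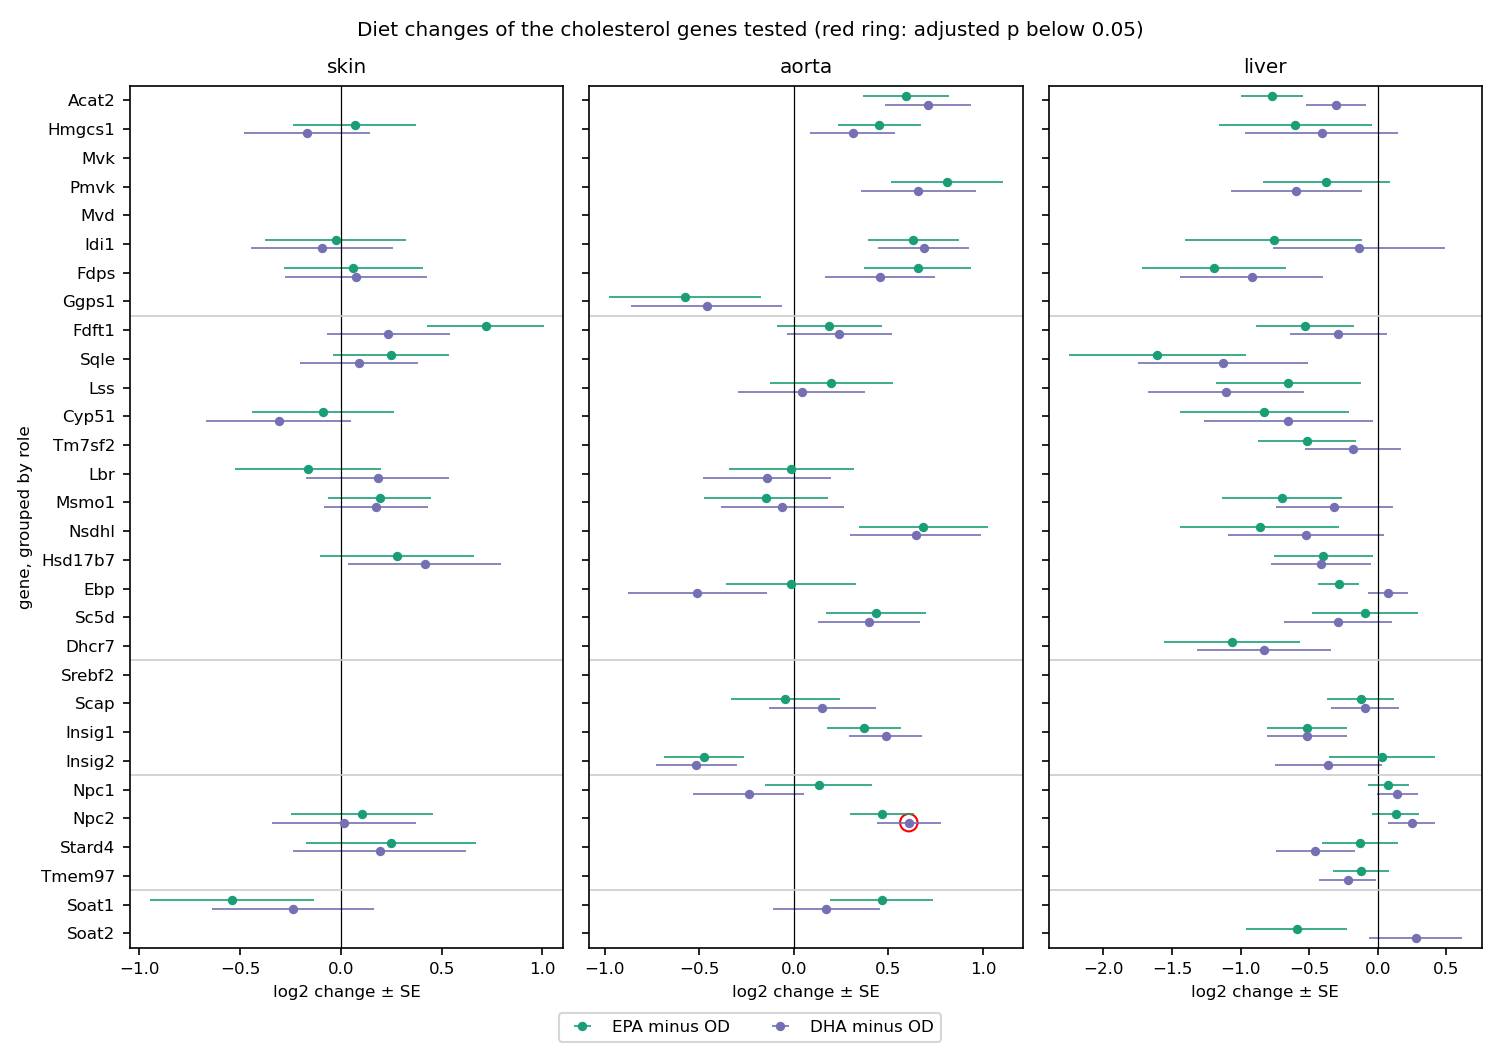
Log2 change of each tested member for EPA minus OD and DHA minus OD in skin, aorta and liver, with SE bars; a ring marks an adjusted p under 0.05. Npc2 in aorta for DHA is the ringed member, and liver values lie mostly left of 0.

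**Figure D4:**
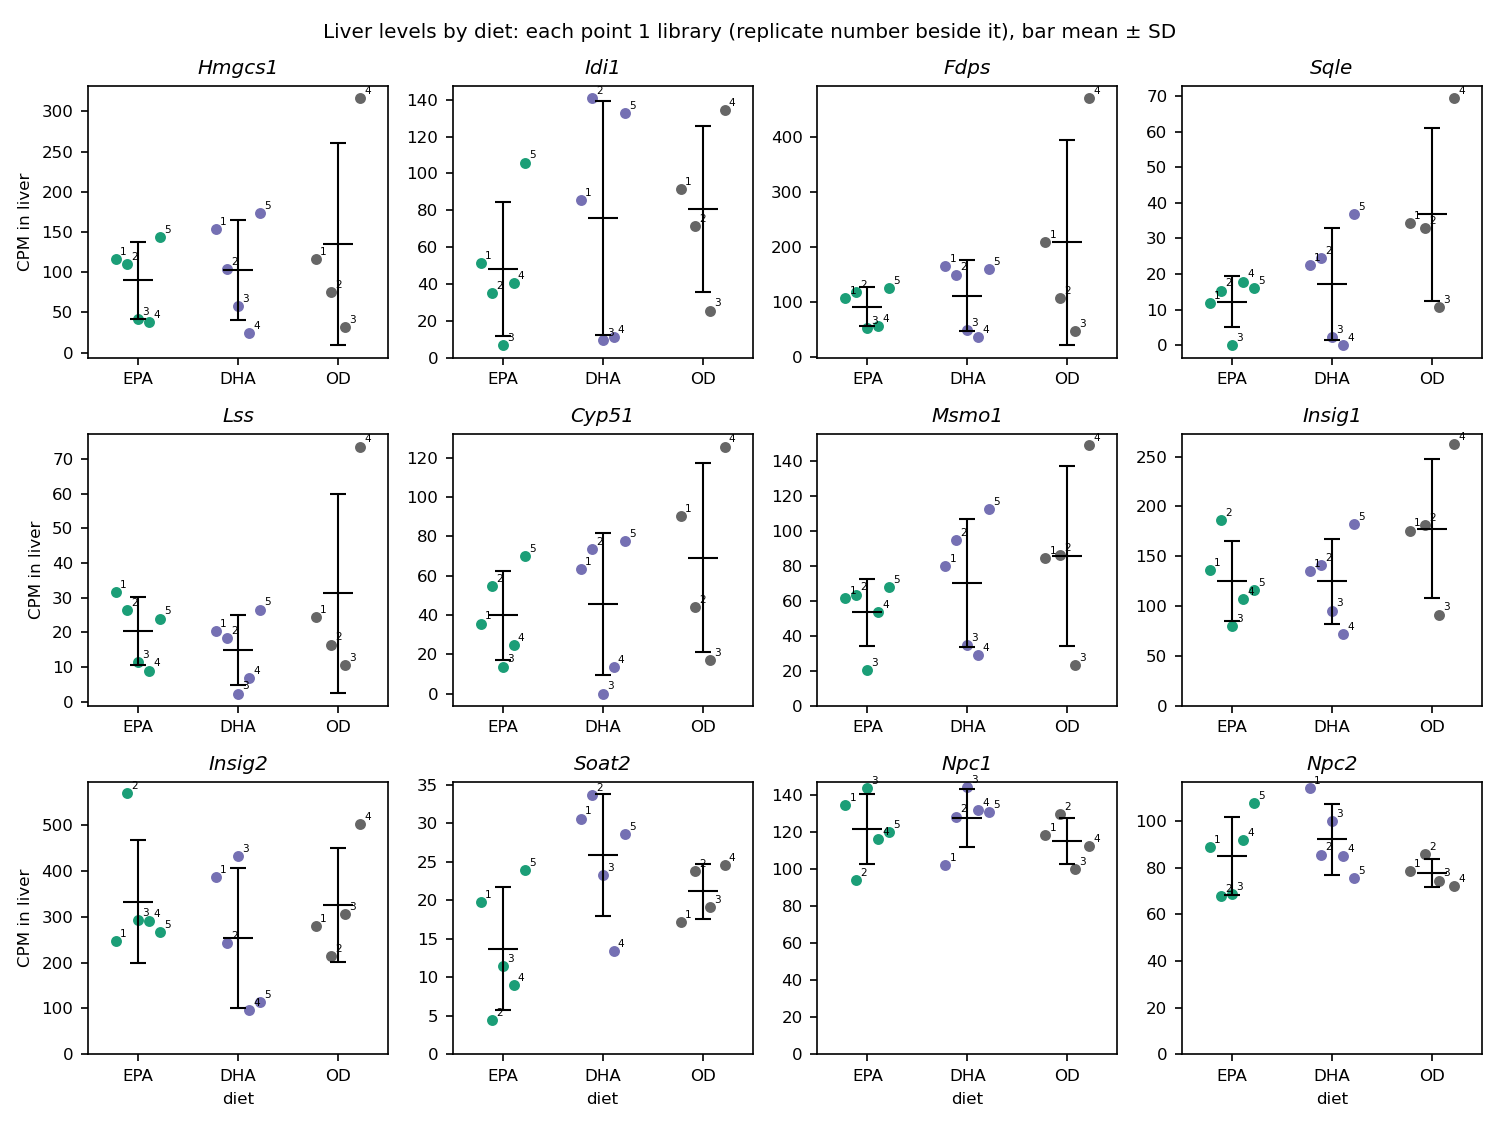
CPM of 12 members in each liver by diet (EPA, DHA, OD), with the mean and SD. OD replicate 4 stands at 316 CPM for Hmgcs1 and 471 CPM for Fdps, above every other liver, whereas Npc1 and Npc2 stay within narrow ranges.

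Livers on the same diet differed far more in these genes than in most others. The median biological coefficient of variation within diets was 0.381 over the 24 members in liver, against 0.180 over all genes tested; it was 0.154 against 0.149 in aorta and 0.287 against 0.226 in skin. Hmgcs1 had 117, 109.6, 41.2, 38 and 144 CPM on EPA, 153, 104, 58.2, 24.6 and 174 CPM on DHA, and 116, 75, 31.9 and 316 CPM on OD. The highest liver exceeded the lowest by 3.78-fold on EPA, 7.05-fold on DHA and 9.90-fold on OD. Idi1 had 51.4, 35.1, 6.86, 40.3 and 106 CPM on EPA, 85.8, 141, 9.32, 11.2 and 133 CPM on DHA, and 91.5, 71.3, 25.6 and 134 CPM on OD. EPA replicate 3, DHA replicates 3 and 4 and OD replicate 3 were low in both genes. OD replicate 4 was the highest of the 14 livers in 13 of the 24 members, and the summed level of all 30 members ran from 1281 CPM in DHA replicate 4 to 4033 CPM in OD replicate 4. By contrast Npc1 had 135, 94.3, 144, 116 and 119.9 CPM on EPA, 102, 129, 144, 132 and 131 CPM on DHA, and 119, 129.8, 100.1 and 113 CPM on OD, and Npc2 had 89, 68, 68.6, 91.8 and 108 CPM on EPA, 114, 85.7, 100.2, 85.1 and 75.6 CPM on DHA, and 78.6, 85.9, 74.5 and 72.2 CPM on OD. In these 2 lysosomal genes the highest liver of a diet was at most 1.59-fold above the lowest. A narrow range was not particular to them. In the sterol enzyme Ebp the ratio was 1.39 on EPA, 1.18 on DHA and 1.52 on OD. In Acat2 it was 1.53, 1.77 and 1.83 in that order of diets. The deepest livers, OD replicate 1 with 768532 counts and OD replicate 4 with 723592, had the highest summed levels, OD replicate 1 at 2706 CPM, while the shallowest, DHA replicate 2 with 343824 counts, stood at 2433 CPM; the part of depth was not tested.

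To describe how the members moved together, each gene was fitted on the within-diet deviation of Hmgcs1, a fit added after the liver levels had been seen, so its calls describe these livers. Of the 23 other members 10 were called, all with a positive slope, while 0.698% of the 5017 genes tested were called and 0.558% with a positive slope. Of the 23, 22 had a positive slope, with a median of 0.43 against -0.0024 over all genes. Slopes are in log2 units per log2 unit of Hmgcs1, so a slope of 1 is a proportional change. Fdps had 0.94 ± 0.078 (SE; adjusted p 5.8e-06), the smallest p of all genes. In the mevalonate arm Idi1 had 0.96 ± 0.20 (adjusted p 0.0296). In the squalene and sterol arm Lss had 0.94 ± 0.13 and Cyp51 0.97 ± 0.18, Nsdhl, a sterol dehydrogenase, had 0.87 ± 0.17, Dhcr7 0.76 ± 0.13, Msmo1, the methylsterol oxidase, 0.67 ± 0.11, Sc5d 0.60 ± 0.088 and Hsd17b7 0.50 ± 0.11, with adjusted p from 0.0017 to 0.0408. Insig1 was the called member of the sensing group, at 0.43 ± 0.075 (adjusted p 0.0112). Its slope was below those of Fdps, Lss and Cyp51; differences between slopes were not tested.

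The members that were not called came from every role. Sqle had a slope of 0.87 ± 0.21 (adjusted p 0.0764), and Pmvk, the phosphomevalonate kinase, 0.56 ± 0.16 (adjusted p 0.165). Acat2 had 0.26 ± 0.075, Fdft1, the squalene synthase, 0.37 ± 0.13, Ebp 0.15 ± 0.051 and Tm7sf2 0.42 ± 0.12. Insig2, whose liver transcript is known to be repressed by insulin, had 0.22 ± 0.16, and Scap 0.26 ± 0.086. In transport and esterification Stard4 had 0.28 ± 0.10, Tmem97, which binds sterol and Npc1, 0.19 ± 0.076, Soat2 0.27 ± 0.14, Npc2 0.026 ± 0.073 and Npc1 -0.037 ± 0.064. None of these 5 was called. Of the 22 further genes of sterol and fatty acid metabolism tested, 4 were called, among them Rdh11, an endoplasmic reticulum retinol dehydrogenase, at 1.06 ± 0.11, Acly, the cytosolic citrate lyase, at 0.87 ± 0.12, and Acss2, the acetyl-CoA synthetase, at 0.91 ± 0.14. The number of calls depended on single livers: without OD replicate 4, 2 members (Fdps and Sc5d) were among 3 genes called, without OD replicate 3 there were 5 members, and without the 2 livers farthest from the median of Hmgcs1, OD replicate 4 and DHA replicate 4, there were 3. The slopes themselves moved less: the median over the members was 0.45 without OD replicate 4 and ran from 0.39 to 0.48 when each liver was left out in turn, and the slope ran from 0.89 to 0.97 for Fdps, from 0.86 to 0.99 for Lss and from 0.39 to 0.46 for Insig1. With Insig1 in place of Hmgcs1 as the index 3 members were called, and with Fdps as the index 10. In aorta 0 of 18 members and in skin 0 of 11 were called on the same fit, where 0% and 0.141% of all genes were; in skin Cyp51 had 0.99 ± 0.23 (adjusted p 0.0671).

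**Figure D5:**
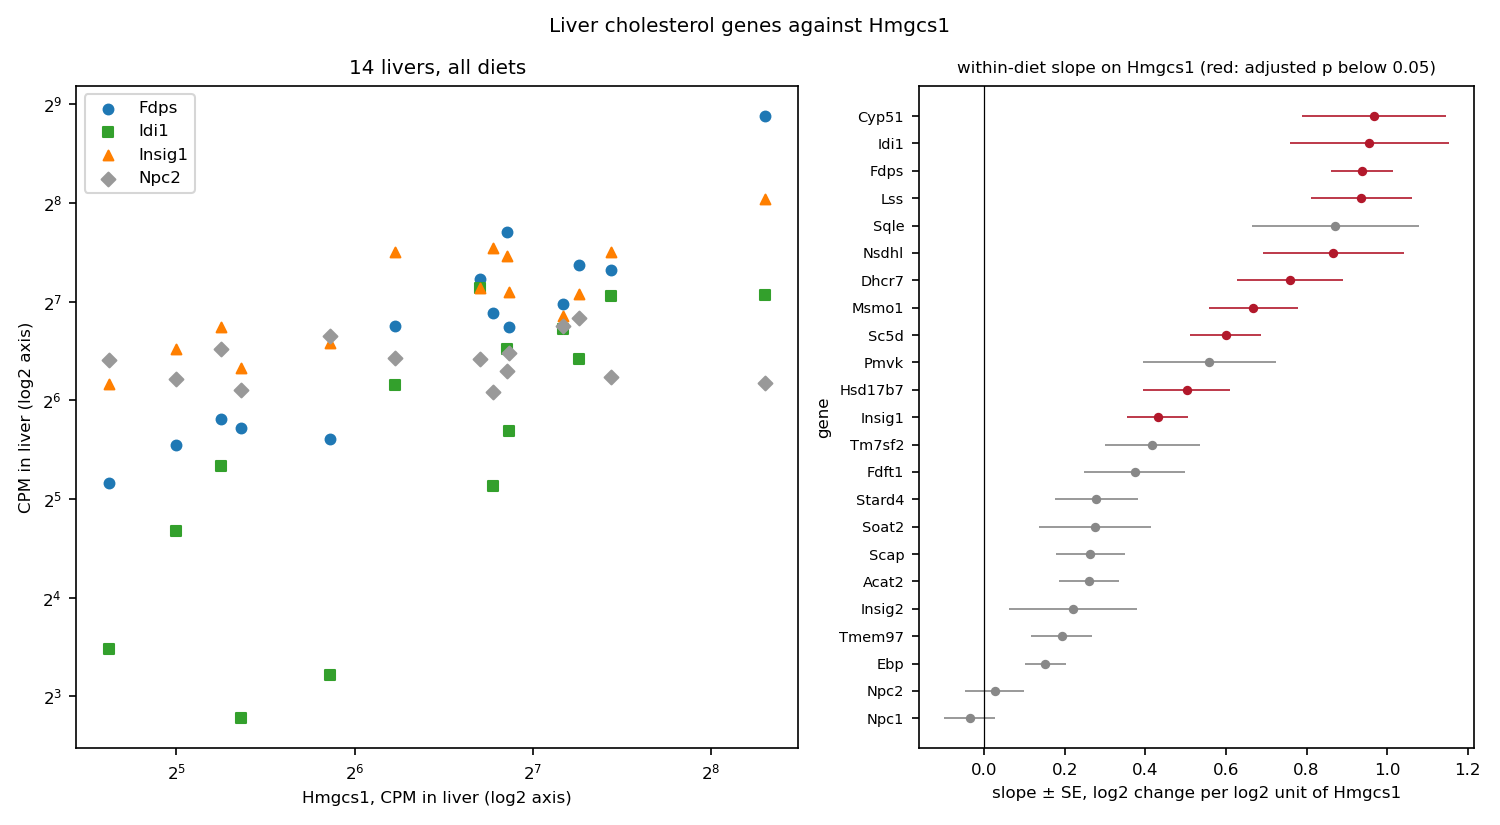
Left, CPM of Fdps, Idi1, Insig1 and Npc2 against CPM of Hmgcs1 in the 14 livers of all diets, on log2 axes; right, the within-diet slope on Hmgcs1 with its SE for the 23 other members, red where the adjusted p was under 0.05. The slope of Fdps is 0.94, near proportion, and that of Npc2 is 0.026.

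In aorta 1 of the 19 members tested was called between diets, a share near that over all genes. Npc2 was higher on DHA than on OD, the 1 call among 19 (5.26%), while 4.88% of the 6538 genes tested were called in that contrast and 4.28% were higher. Npc2 had 167, 140.4, 184, 215 and 206 CPM on EPA, 274, 200.3, 193, 188 and 158 CPM on DHA, and 108, 145, 138 and 126 CPM on OD. The lowest DHA aorta lay above the highest OD aorta, and the EPA aortas reached from within the OD range to the DHA range. The log2 change was 0.61 ± 0.17 for DHA minus OD (SE, n = 5 and 4; adjusted p 0.0402 in the quasi-likelihood fit) and 0.47 ± 0.17 for EPA minus OD (adjusted p 0.208). EPA minus DHA was -0.14 ± 0.16, with a 95% interval of -0.46 to 0.18. The call for DHA depended on the processing: Npc2 stood at 0.40 and was not called when scaled by total counts alone, at 0.28 after thinning to the lowest total, at 0.54 with high Xist as a covariate and at 0.64 in the fit of all 42 libraries. It was also lost with limma voom (0.55), without the 3 aortas with high Xist (0.50) and in 9 of the 14 fits that left out a library (any OD aorta, DHA replicates 1 to 4 or EPA replicate 3), where the log2 difference ran from 0.49 to 0.69; over all alternatives the adjusted p ran from 0.0279 to 0.563.

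Next to Npc2, 3 mevalonate genes had DHA aortas wholly above OD aortas, so that 4 of 19 members did, against 5.38% of all genes. Acat2 had 48.7, 64, 41.2, 84.1 and 94 CPM on EPA, 96.4, 76, 67.8, 63.9 and 70.6 CPM on DHA, and 50.8, 45.5, 44.9 and 42.5 CPM on OD, a log2 difference of 0.71 ± 0.23 for DHA (adjusted p 0.0803) and 0.60 ± 0.23 for EPA minus OD (adjusted p 0.239). Idi1 had 41.8, 40.9, 27.5, 42 and 48.8 CPM on EPA, 49.7, 41.4, 37.9, 47.1 and 35.3 CPM on DHA, and 19, 33.5, 26.9 and 19.6 CPM on OD, with 0.69 ± 0.24 (adjusted p 0.114) and 0.63 ± 0.24 (adjusted p 0.234) in the same order. Pmvk had 20.9, 51.6, 38.5, 32.1 and 75.9 CPM on EPA, 46.6, 34.5, 37.9, 33.6 and 59.8 CPM on DHA, and 25.4, 28.1, 21.5 and 29.4 CPM on OD, with 0.66 ± 0.31 and 0.81 ± 0.30. None of the 3 passed the test, and EPA aortas overlapped OD aortas in each. In a fit of only the DHA and OD aortas Acat2 was called as well as Npc2. Fdps had 27.8, 88.9, 52.2, 51.9 and 70.5 CPM on EPA, 49.7, 38, 55.8, 62.2 and 54.3 CPM on DHA, and 44.4, 48.2, 17.9 and 45.8 CPM on OD, with 0.65 ± 0.28 for EPA and 0.45 ± 0.29 for DHA minus OD; OD replicate 3 was the low aorta.

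The sensing pair had differences of opposite sign. Insig1 had 164, 135, 151, 153 and 150.1 CPM on EPA, 165, 207, 155, 143 and 149 CPM on DHA, and 190.4, 120.5, 70.0 and 118 CPM on OD, with 0.48 ± 0.19 for DHA (adjusted p 0.181) and 0.37 ± 0.19 for EPA minus OD. Insig2 had 48.7, 71.1, 38.5, 44.5 and 41.6 CPM on EPA, 43.5, 44.9, 49.8, 53.8 and 46.2 CPM on DHA, and 95.2, 53.6, 79 and 65.4 CPM on OD, with -0.52 ± 0.21 for DHA (adjusted p 0.2) and -0.47 ± 0.21 for EPA minus OD. Neither passed, and both genes overlapped between the diets; for DHA minus OD, limma voom called Insig1 at 0.66 and so did edgeR without OD replicate 1. Hmgcs1 was at 0.31 for DHA and 0.45 for EPA minus OD, Npc1 at -0.24 and 0.13, and Soat1 at 0.17 and 0.46. Over the 19 members the median was 0.24 for DHA minus OD and 0.37 for EPA minus OD, against -0.045 and -0.024 over all genes, and 13 of 19 were positive in each, with the OD libraries shared. For EPA minus OD 0 of 19 were called by edgeR, by DESeq2 or by limma voom, while 0.275% of all genes were called by edgeR; 6 members had an unadjusted p under 0.05, as did 12.6% of all genes. For EPA minus DHA 0 were called by any of the 3 tools and 0% of all genes by edgeR, 0 members had an unadjusted p under 0.05 against 3.46% of genes, and the smallest p values belonged to Ebp at 0.50 ± 0.36, Npc1 at 0.37 ± 0.28, Soat1 at 0.29 ± 0.26, Npc2 and Fdps at 0.20 ± 0.26. Of the 25 further genes 15 were tested, and 2 were higher and 1 lower for DHA against OD.

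Markers of other cells differed between the same aortas. The summed level of 10 brown adipocyte markers was 4173 to 7807 CPM on EPA, 7335 to 8700 CPM on DHA and 1980 to 4793 CPM on OD, although perivascular fat had been removed. The 10 white adipocyte markers summed to 4563 to 10315 CPM on EPA, 7008 to 9036 CPM on DHA and 5066 to 6526 CPM on OD. Smooth muscle markers summed to 9739 to 15042 CPM on EPA, 9720 to 12206 CPM on DHA and 13452 to 18019 CPM on OD, and macrophage markers to 303 to 487, 356 to 432 and 348 to 546 CPM in that order of diets. All 10 genes of each list were detected on every diet, DHA aortas lay wholly above OD aortas in both adipocyte lists and wholly below them in the smooth muscle list, and the part of these cells in the levels of Npc2, Acat2, Idi1 and Pmvk was not tested.

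In ear skin, the diseased tissue of these mice, 12 members could be tested and 0 were called in any diet contrast by edgeR, DESeq2 or limma voom, and 0% of the 2133 genes tested were called by edgeR. At an unadjusted p under 0.05 there was 1 member for EPA against OD (4.17% of all genes), and 0 for DHA against OD (2.16%) and for EPA against DHA (2.16%). That member was Fdft1, which commits farnesyl diphosphate to sterol, with 169, 278, 259, 228 and 234 CPM on EPA, 159, 191, 148, 70.4 and 275 CPM on DHA, and 113, 196, 128 and 132 CPM on OD. EPA skins lay mostly above OD skins, with overlap; the log2 difference was 0.72 ± 0.29 for EPA minus OD (p 0.022, adjusted p 0.975) and 0.24 ± 0.30 for DHA minus OD. Soat1 had 98.6, 200.2, 57.6, 94.8 and 83.5 CPM on EPA, 142, 191, 111, 35.2 and 220.4 CPM on DHA, and 211, 110.2, 235 and 99.1 CPM on OD, with -0.54 ± 0.41 and -0.24 ± 0.40 in the same order. Sqle had 239.5, 389, 115, 171 and 242 CPM on EPA, 226, 213, 222, 211 and 220.4 CPM on DHA, and 148, 282, 235 and 182 CPM on OD. Its DHA skins were close together and inside the EPA and OD ranges, and the differences were 0.25 ± 0.29 and 0.089 ± 0.29.

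The skin levels of Hmgcs1 were 338, 934, 346, 455 and 535 CPM on EPA, 409, 340.3, 672, 528 and 248 CPM on DHA, and 379.9, 551, 491 and 644 CPM on OD. EPA replicate 2 was the highest skin in Hmgcs1, and the differences were 0.068 ± 0.31 for EPA and -0.17 ± 0.31 for DHA minus OD. Cyp51 had 183, 601, 144, 247 and 251 CPM on EPA, 234, 213, 345, 176 and 248 CPM on DHA, and 197, 282, 470.0 and 396 CPM on OD, with -0.089 and -0.31 ± 0.36, and again EPA replicate 2 was the highest. Without that library EPA minus DHA was -0.093 for Hmgcs1 and -0.27 for Cyp51, both opposite in sign to the fit of all libraries, and EPA minus OD was -0.015 for Sqle. Msmo1 was at 0.19 ± 0.25 and 0.17 ± 0.26, Hsd17b7 at 0.28 ± 0.38 and 0.41 ± 0.38, Idi1 at -0.027 and -0.094, and Npc2 at 0.11 and 0.016. For EPA minus DHA the 5 smallest p values belonged to Fdft1 at 0.48 ± 0.27, Lbr at -0.34 ± 0.34, Hmgcs1 at 0.24 ± 0.29, Soat1 at -0.30 ± 0.41 and Cyp51 at 0.22 ± 0.34. The 95% interval for Hmgcs1, EPA minus OD, ran from -0.57 to 0.71. Keratinocyte markers summed to 45441 to 61457 CPM on EPA, 45829 to 63229 CPM on DHA and 42889 to 61832 CPM on OD, and the 9 sebocyte markers to 228 to 719, 246 to 854 and 215 to 705 CPM in that order of diets, with Mc5r at 0 on each. The other 18 members, Srebf2, Insig1, Insig2, Npc1 and Soat2 among them, did not pass the filter in skin and were not tested for diet there.

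Because the fitted diet changes were mostly positive in aorta and mostly negative in liver, the difference between the tissues was tested itself, in the fit of all 42 libraries with all 30 members. By edgeR 0 members were called for EPA and 0 for DHA, while 0.0404% and 0.0202% of the 9912 genes were; 6 and 4 members had an unadjusted p under 0.05, as did 5.94% and 7.57% of genes. The median difference over the members, aorta minus liver, was 0.58 for EPA minus OD and 0.39 for DHA minus OD, against 0.019 and 0.0050 over all genes, and for DHA it was -0.022 when scaled by total counts alone, against -0.37 over all genes. Acat2 had the smallest p in both: its EPA minus OD value was 0.60 ± 0.23 in aorta and -0.77 ± 0.22 in liver, a difference of 1.42 ± 0.34 (adjusted p 0.168), and the difference for DHA was 1.09 ± 0.33 (adjusted p 0.296). Fdps differed by 1.91 ± 0.61 for EPA (adjusted p 0.534) and 1.45 ± 0.61 for DHA (adjusted p 0.546). For EPA, Nsdhl differed by 1.60 ± 0.65, Insig1 by 0.94 ± 0.39 and Pmvk by 1.24 ± 0.54; for DHA, Insig1 differed by 1.06 ± 0.40, Pmvk by 1.33 ± 0.55 and Nsdhl by 1.23 ± 0.65. DESeq2 called 0 members in either, and limma voom called Acat2 for EPA and 0 members for DHA.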

How the data were processed

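Transcripts were measured with 3′ tag libraries made from 10 ng of RNA of ear skin, aorta and liver; per the labels' protocols each molecule carried a unique molecular index, and whether these were collapsed is not given in the sources used here. Raw counts per gene, as deposited by the authors, were used for every value; a deposited table headed CPM was read as a score, since its columns total 513430 to 1767790 and are fixed multiples of the counts, and gives no value here. GRCm38.p6 and edgeR are named in the submitters' processing notes without roles. Counts were filtered within a tissue (edgeR's filterByExpr, minimum count 10), scaled by TMM and tested with edgeR 4.0.16 in R 4.3.3 by the quasi-likelihood F test, in a fit of the 3 diets per tissue or of all 42 libraries, with Benjamini-Hochberg adjusted p under 0.05 over all genes. The SE is the log2 change over the root of F. DESeq2 1.42.0 and limma 3.58.1 (voom) were alternatives; 12 adjusted p that DESeq2 gave as missing were left so. The scripts were tested on simulated data. No 2 libraries of the same tissue and diet agreed within sampling noise (smallest chi-square per degree of freedom 1.75 over 78 pairs). Pairs across diets or tissues were not compared. Tissues of a mouse were fitted as independent, and replicates may share litters, so p-values measure the spread between these libraries. The replicate numbers follow accession order and were not used to pair tissues, although the libraries with high Xist carry the same numbers in each. The members and lists were chosen with earlier results of these data known. Named are all called members, or the 5 with the smallest p, 10 fixed members in every tissue, and the 5 largest and 5 smallest differences between tissues.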

Additional observations from a re-analysis of the deposited data

Results flagged for a closer look

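Of 105 groups of 4 or 5 libraries examined for members named above, 7 held a library that stood far from the rest, where chance gives about 1 in 20. In aorta, Ebp was 12.7 CPM in OD replicate 1, the lowest of its group, with the next at 25.4 CPM. Fdps was 17.9 CPM in aorta OD replicate 3, with the next at 44.4 CPM. In liver, Ebp was 233 CPM in DHA replicate 5, with the next at 203 CPM, and Insig2 was 569.9 CPM in EPA replicate 2, with the next at 293 CPM. In skin, Cyp51 was 601 CPM and Soat1 200.2 CPM in EPA replicate 2, with the next at 251 and 98.6 CPM. Lbr was 319 CPM in skin DHA replicate 2, with the next at 165 CPM.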

How the results depend on the processing

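The counts of members called kept within 1.5 times of the values given, except as follows. For DHA against OD in aorta, 1 member became 0 with total counts alone, with thinned counts (8 members tested), with high Xist as a covariate, without the libraries with high Xist and in the fit of 42 libraries, and 2 with only the 2 diets compared; leaving out a library gave 0 to 1, and without OD replicate 1 the call was Insig1. With limma voom the count stayed at 1, with Insig1 in place of Npc2. With no low-count filter, liver gave 4 members for EPA and 2 for DHA against OD, and the aorta-minus-liver difference gave 1 member for EPA and 1 for DHA; limma voom gave 1 for EPA. Thinned to the lowest total, which left 6 members tested, 5 were called for aorta minus liver, 5 for skin minus liver and 4 for skin minus aorta. The liver slope fit called 10 members, 3 with Insig1 as the index, 3 without the 2 livers farthest from the median of Hmgcs1, and 2 to 11 when a library was left out. The causes were not tested beyond the fewer genes and libraries each alternative holds. Scaled by total counts alone, the median of all genes moved from near 0 to -0.17 and -0.25 (aorta, EPA and DHA minus OD), 0.15 (liver, both), 0.81 (aorta minus liver) and 0.42 (skin minus aorta).

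The sign reversed in these cases. Npc2 became 0.15 for EPA minus DHA in aorta when thinned, and Stard4 -0.15 in liver without the libraries with high Xist. Between tissues, Acat2 became 0.18 for aorta minus liver and 0.34 for skin minus aorta with total counts alone, and 0.16 for skin minus aorta in OD libraries only. For skin minus aorta Npc2 became 0.066 with total counts alone and 0.031 when thinned, and Soat2 0.86 with limma voom. The liver slope of Npc2 became -0.049 with Insig1 as the index, -0.036 when thinned and -0.064 without high Xist; that of Npc1 became 0.020 with total counts alone and 0.0099 when thinned. Leaving out a library in turn gave -0.0068 to 0.062 for the liver slope of Npc2, -0.011 to 0.34 for Fdps in aorta (EPA minus DHA), and in skin -0.015 to 0.43 for Sqle (EPA minus OD), -0.093 to 0.49 for Hmgcs1 and -0.27 to 0.43 for Cyp51 (both EPA minus DHA); skin EPA replicate 2 decided the skin signs.

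No paired analysis was possible because the labels carry no replicate numbers and do not tie libraries to a mouse. The numbers used here follow accession order; the libraries with high Xist carry the same numbers in all 3 tissues, a hint from the data that the numbers may follow the mouse, so the tests between tissues, which treat libraries as independent, may leave out a shared mouse. Skin depth limited the diet tests to 12 members, and 3′ tags give no comparison of levels between genes.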

Other observations

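Beyond the cholesterol genes, the fit on Hmgcs1 in liver called 21 genes that were neither members nor among the 25 further genes of sterol and fatty acid metabolism. Several make or handle fatty acids: Acaca had a slope of 0.78 ± 0.15, Acacb of 1.04 ± 0.20, Fasn of 0.79 ± 0.16, Elovl6 of 0.95 ± 0.18 and Tecr of 0.45 ± 0.067 (SE, log2 per log2 unit of Hmgcs1). Fabp5, a fatty acid binding protein, had 0.91 ± 0.16, Aqp8, a water channel, 0.98 ± 0.15, and Pklr, the liver pyruvate kinase, 0.64 ± 0.13. Negative slopes were fewer, 7 of the 35 genes called; Upp2, a uridine phosphorylase, had -0.79 ± 0.15, Mup12, a major urinary protein of a family with near-identical copies, -1.09 ± 0.23, and Hsph1, a heat shock protein, -0.77 ± 0.17. These genes were named after their values were seen. Without OD replicate 4 the fit called 3 genes in all, while the median slope of the cholesterol genes was 0.45.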
